A study of Mus musculus with 6 samples.

Results

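The D-type cyclins, the kinases Cdk4 and Cdk6 and the inhibitors that act on them were examined in mouse megakaryocytes, the large bone marrow and fetal liver cells that shed platelets. The members were Ccnd1, Ccnd2, Ccnd3, Cdk4, Cdk6, Cdkn1a, Cdkn1b, Cdkn1c, Cdkn2c and Cdkn2d. They were measured by every probe set whose platform annotation names only that gene, which gave 26 probe sets for these 10 genes, out of 34958 probe sets that name 1 gene and 18194 such genes in all. No probe set named a member together with another gene, and all 26 passed the filter on dim probe sets. There were 6 microarrays, 3 of a Gata-1 knockdown and 3 of Gata-1 wild type, lettered A, B and C in each group. Per the labels, the cells of both groups were grown in differentiation media from progenitors of mouse fetal livers of day 13.5 and collected on a gradient of bovine serum albumin. The labels do not say how the knockdown was made, nor whether each sample had a culture or animal of its own, and the p-values therefore reflect the spread among these 6 samples alone, and that spread may be technical.

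D-type cyclins are made in response to growth signals and bind CDK4 or CDK6, and the active kinase phosphorylates the retinoblastoma protein, which releases E2F transcription factors and lets a cell enter S phase. The INK4 inhibitors, here the products of Cdkn2c and Cdkn2d, bind CDK4 and CDK6 alone, while the CIP/KIP inhibitors, the products of Cdkn1a, Cdkn1b and Cdkn1c, bind cyclin and kinase together and also restrain CDK2. Megakaryocytes repeat S phase without completing cell division, a process called endomitosis, and cyclin D3 has been linked to their polyploidy in mice.

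The labels were checked with Gata1 itself, which encodes a zinc finger transcription factor of megakaryocytes and red cells. Its probe set read 153.5, 143.3 and 194.7 in knockdown A, B and C, against 8723.7, 8246.5 and 8495.6 in wild type A, B and C, or -5.52 ± 0.12 as log2 fold change (SE), for which limma gave an adjusted p of 2.89e-09. Values are signals as deposited, in units of intensity, and log2 fold changes are knockdown over wild type after quantile normalization of log2(signal + 32). The highest of 27 bacterial control probe sets, used as a bound on background, lay between 79.8 and 132 on the knockdown arrays, highest on knockdown B, and between 60.7 and 65.8 on the wild-type arrays. Precision is limited by how many arrays there are. Of the 31526 probe sets tested, 30.4% passed an adjusted p of 0.05, with 16.1% higher and 14.3% lower in knockdown. Rises made up 52.9% of these calls, and 32.9% where each array was instead centred on its median. Of the 26 member probe sets, 9 were higher, 8 were lower and 9 did not pass, and their median log2 fold change of 0.07 compares with 0.04 over all probe sets tested. On 19 of the 26 the signals of the groups did not overlap, against 46.0% of all probe sets tested.

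**Figure D1:**
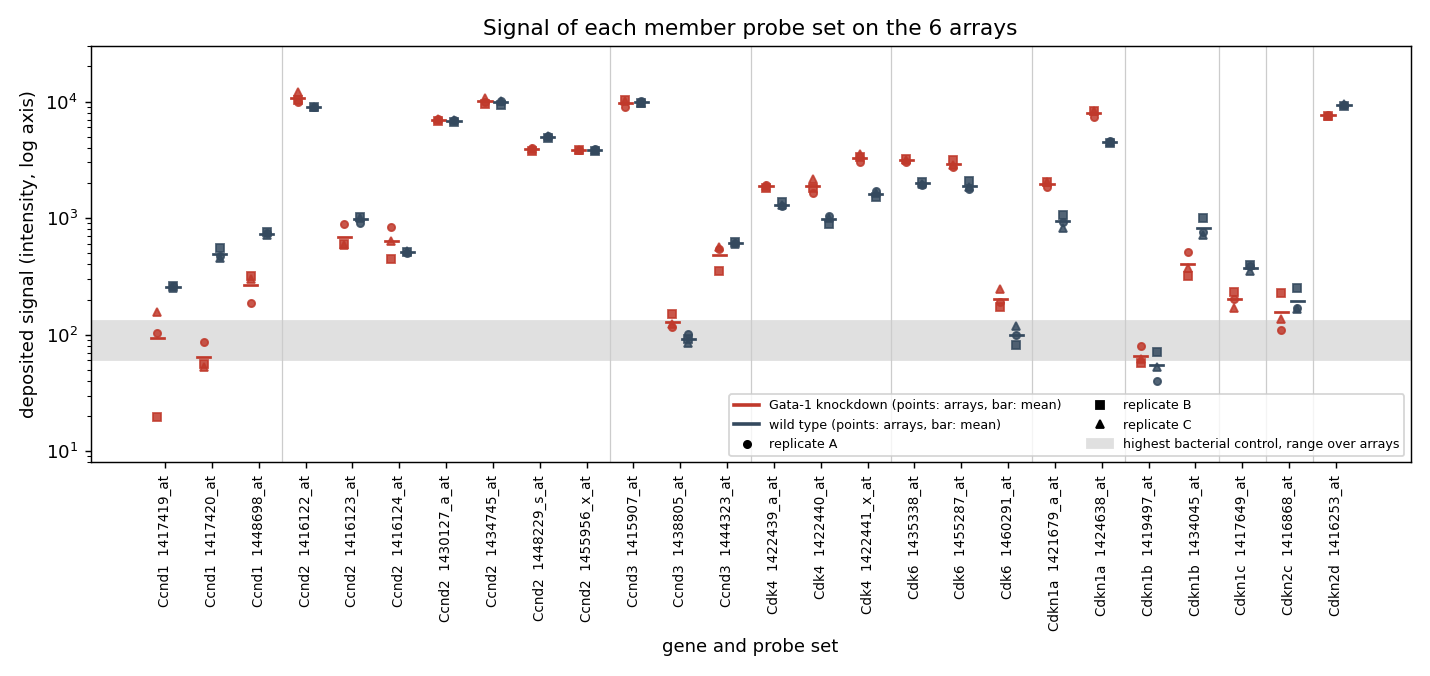
Deposited signal (log axis) of each of the 26 probe sets on the 3 knockdown and 3 wild-type arrays, with the mean of each group as a bar and the range of the highest bacterial control over the arrays as a grey band. The knockdown points of Ccnd1 lie below those of wild type on all 3 probe sets, and those of Cdk4, Cdk6 and Cdkn1a lie above on all 8.

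Among the D cyclins, Ccnd1 alone was lower on every one of its probe sets. Probe set 1448698_at of Ccnd1, which encodes cyclin D1, read 186.6, 317.7 and 298.5 in knockdown A, B and C, against 739, 755.7 and 711.9 in wild type A, B and C. It was above the bacterial controls on all 6 arrays, and its means were 268 ± 70.8 for knockdown and 736 ± 22.1 for wild type (± SD of 3 arrays each). That is 2.76-fold lower, a log2 fold change of -1.47 ± 0.16 (SE), at an adjusted p of 6.80e-05 in limma. The knockdown arrays varied more than those of wild type, with knockdown A lowest, and the groups did not overlap.

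The other Ccnd1 probe sets were dimmer in knockdown. Probe set 1417420_at read 86.3, 55.7 and 52.4 in knockdown A, B and C, against 470.1, 553.4 and 454 in wild type. On 2 of the 3 knockdown arrays it did not exceed the bacterial controls, so that the change is a bound, at least 4.44-fold lower in knockdown (limma adjusted p 6.71e-06 for a fitted log2 fold change of -2.57 ± 0.20). Probe set 1417419_at read 103.2, 19.6 and 157.7 in knockdown, with only knockdown B under the controls, against 259.1, 261.7 and 250.6 in wild type. Its log2 fold change was -1.53 ± 0.41 (limma adjusted p 0.0179), and it was -0.97 without knockdown B. The call of this probe set was lost when any 1 wild-type array was left out, with adjusted p of 0.0588, 0.0576 and 0.0540 without A, B and C, and also without an intensity trend in the variance model (0.0742). The 3 Ccnd1 probe sets are annotated to 1 transcript record, so they are repeated readings of the same RNA and not separate evidence from other samples.

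Ccnd2, which encodes cyclin D2, had 7 probe sets, and they did not move together. Probe set 1416122_at read 9818.9, 10300.4 and 12001.1 in knockdown A, B and C, against 9057.7, 8945.7 and 9003 in wild type. It was higher in knockdown, by 0.28 ± 0.06 on the log2 scale (limma adjusted p 0.00474), but only by 0.05 after median centring, where it did not pass. Probe set 1448229_s_at read 4026, 3760.5 and 3951.4 in knockdown, against 5026.7, 4886.6 and 5104.4 in wild type, and was lower, at -0.27 ± 0.05 (limma adjusted p 0.00196). Both sets are annotated to the same transcript record, and on both the groups did not overlap.

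Probe set 1416123_at of Ccnd2 read 889.6, 597.6 and 587.7 in knockdown, against 901.9, 1020.1 and 1002.3 in wild type, where knockdown A lay close to the wild-type arrays and the other knockdown arrays well below. Its log2 fold change was -0.54 ± 0.14 (limma adjusted p 0.0168), and the call was lost without knockdown B or C or wild type B or C, where the adjusted p lay between 0.0511 and 0.0732. The remaining 4 sets, 1416124_at, 1430127_a_at, 1434745_at and 1455956_x_at, did not pass, with log2 fold changes of 0.19, 0.11, 0.06 and 0.08, and the last 3 of these turned to -0.17, -0.16 and -0.19 after median centring. For 1434745_at, the probe set of Ccnd2 with the highest mean over all arrays, the 95% interval ran from -0.05 to 0.17. Probe set 1416124_at read 836.4, 446.5 and 630.1 in knockdown, against 501.6, 513 and 517.7 in wild type, and was called higher, at 0.41, only without knockdown B (limma adjusted p 0.0327). No direction for Ccnd2 as a gene follows from these 7 sets, of which 1 was higher, 2 were lower and 4 did not pass. Without an intensity trend in the variance model none of the 3 calls held, with adjusted p of 0.0842 for 1416122_at, 0.0724 for 1416123_at and 0.0527 for 1448229_s_at.

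Ccnd3, the gene of cyclin D3, had no probe set that passed. Probe set 1415907_at read 8951.8, 10350.4 and 10057.7 in knockdown, against 10195.9, 9741.6 and 9659.5 in wild type, and the groups overlapped. The log2 fold change was 0.01 ± 0.05 (limma adjusted p 0.867), with a 95% interval from -0.09 to 0.12 under quantile normalization, and the value turned to -0.21 after median centring, where the adjusted p was 0.0677, and to -0.014 with values as deposited. Probe set 1444323_at read 546.5, 349.5 and 562.7 in knockdown, against 616.4, 625.3 and 603.7 in wild type. Every knockdown array was below every wild-type array there, but the change of -0.43 ± 0.17 did not pass (limma adjusted p 0.0795), and it passed without knockdown A or knockdown C (0.0431 and 0.0485). Probe set 1438805_at, near the bacterial controls, read 115.6, 150.6 and 122.2 in knockdown, against 101.6, 90.9 and 84.9 in wild type, with a change of 0.18 ± 0.20 (limma adjusted p 0.550).

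Both catalytic subunits rose. All 3 probe sets of Cdk4 and all 3 of Cdk6 were higher in knockdown, and on each of the 6 the lowest knockdown array was above the highest wild-type array. The 3 Cdk4 sets are annotated to 1 transcript record, so they are repeated readings of the same RNA. Probe set 1422441_x_at of Cdk4 read 3014.7, 3329.7 and 3532.1 in knockdown A, B and C, against 1692.4, 1528.9 and 1631.3 in wild type. The means were 3292 ± 261 for knockdown and 1618 ± 82.6 for wild type (± SD of 3 arrays each), a log2 fold change of 1.05 ± 0.08 (SE), or 2.07-fold higher, with a limma adjusted p of 4.17e-06. Probe set 1422440_at read 1626.8, 1817.7 and 2162 in knockdown, against 1047.3, 893.8 and 1004.2 in wild type, which is 0.90 ± 0.11 as log2 fold change (limma adjusted p 0.000130). Knockdown A was the lowest and C the highest of the knockdown arrays on both sets. The third set, 1422439_a_at, read 1916.3, 1822.7 and 1871.1 in knockdown, against 1259.3, 1361.2 and 1292.8 in wild type, and its smaller change of 0.53 ± 0.07 (limma adjusted p 0.000171) did not pass after median centring, at 0.31 (adjusted p 0.0505).

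For Cdk6, probe set 1435338_at read 3052.7, 3212.7 and 3154 in knockdown, against 1926.9, 2052.7 and 1979.2 in wild type, with means of 3140 ± 80.9 in knockdown and 1986 ± 63.2 in wild type (± SD of 3 arrays each). Expression was thus 1.63-fold higher, at 0.71 ± 0.06 on the log2 scale (SE; limma adjusted p 1.32e-05). Probe set 1455287_at, annotated to the same record, read 2721.9, 3168.1 and 2853.7 in knockdown, against 1784.2, 2064.6 and 1846.8 in wild type, at 0.66 ± 0.08 (limma adjusted p 0.000200). Probe set 1460291_at read 190.9, 171.2 and 248 in knockdown, against 98.4, 82.1 and 118.4 in wild type, at 0.64 ± 0.22. Its limma adjusted p of 0.0478 lay at the threshold, and the call was lost when any 1 array other than knockdown B was left out, with adjusted p between 0.0612 and 0.170. The call was also lost after median centring (0.0552), with an offset of 1 (0.0504), without a filter (0.105) and without an intensity trend (0.0602).

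The promoters of the kinases are shown because both genes rose on all their probe sets. RefSeq windows of GRCm38.p6 were at hand for 7 of the 10 members, and for those with several annotated starts there were several windows. There was none for Ccnd1, Ccnd2 or Cdkn1c, so the promoters of these genes were not searched. Capitals mark CACGTG, the E-box bound by MYC-type factors, in the 250 bases before the annotated start, written 5′ to 3′.
Cdk4, chr10:127063285-127063534, plus strand: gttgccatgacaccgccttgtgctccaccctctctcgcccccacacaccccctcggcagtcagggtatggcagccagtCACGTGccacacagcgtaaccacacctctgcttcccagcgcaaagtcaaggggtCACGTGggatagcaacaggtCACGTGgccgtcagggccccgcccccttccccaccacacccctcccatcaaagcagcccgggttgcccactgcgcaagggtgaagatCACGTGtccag
Cdk6, chr5:3343643-3343892, plus strand: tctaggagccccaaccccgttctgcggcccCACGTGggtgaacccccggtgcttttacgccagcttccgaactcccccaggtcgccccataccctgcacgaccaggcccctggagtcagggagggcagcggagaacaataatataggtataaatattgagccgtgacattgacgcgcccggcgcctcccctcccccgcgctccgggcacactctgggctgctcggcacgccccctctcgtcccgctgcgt

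The Cdk4 window held 4 copies of CACGTG, beginning 172, 118, 98 and 11 bases before the start. At least 4 copies were found in 7 of 32851 promoter windows, or 0.0213%. The Cdk6 window held 1 copy, 220 bases before the start, as at least 1 copy did in 6.02% of windows, and no other member's window held one. The GATA motif (AGATAA, with A or T first and A or G last, on either strand), present in 26.5% of windows, was found in neither kinase's window and in 1 window of Cdkn1a only. The E2F motif (TTTCGCGC or TTTGGCGC, on either strand), present in 0.654% of windows, was in no member's window at hand. Nor was a full match to the p53 response element, present in 3 windows of the whole table. Near matches were not counted, so this does not show that a member's window, that of Cdkn1a included, lacks a p53 site. No motif overlapped another in the sequences shown, and a match describes the letters in the window and not a site in use.

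The CIP/KIP inhibitors split. Cdkn1a, whose product p21 halts the cell cycle after p53 is activated and also accumulates in differentiating cells, rose on both of its probe sets. Probe set 1424638_at read 7395.3, 8235.6 and 8300.8 in knockdown A, B and C, against 4613.3, 4430.7 and 4513.7 in wild type. The means were 7977 ± 505 for knockdown and 4519 ± 91.4 for wild type (± SD of 3 arrays each), a log2 fold change of 0.88 ± 0.05 (SE), or 1.84-fold higher, with a limma adjusted p of 1.03e-06. Probe set 1421679_a_at read 1832.1, 2037.1 and 2053.2 in knockdown, against 932, 1067.8 and 815.5 in wild type, at 1.06 ± 0.10 (limma adjusted p 2.57e-05). On both sets every knockdown array was above every wild-type array, and both calls held under each of the 14 alternatives tried.

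The window before the upstream start of Cdkn1a is shown because it is the only member window at hand with a GATA motif. The motif is marked in capitals and read on the opposite strand, 195 bases before the start.
Cdkn1a, chr17:29090729-29090978, plus strand: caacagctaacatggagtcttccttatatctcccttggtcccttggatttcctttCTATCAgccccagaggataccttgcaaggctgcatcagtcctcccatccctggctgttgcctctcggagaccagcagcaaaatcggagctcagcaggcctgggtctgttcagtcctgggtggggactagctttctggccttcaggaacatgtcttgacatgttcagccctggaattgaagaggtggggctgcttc

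Cdkn1b and Cdkn1c went the other way. Cdkn1b encodes p27, which accumulates in resting cells, and its probe set 1434045_at read 514.1, 317.1 and 375.9 in knockdown, against 757, 998.7 and 719.1 in wild type. The means were 402 ± 101 for knockdown and 825 ± 152 for wild type (± SD of 3 arrays each), a log2 fold change of -1.08 ± 0.18 (SE), or 2.11-fold lower (limma adjusted p 0.00104). Its other set, 1419497_at, read 79.3, 57.4 and 61.6 in knockdown, within the bacterial controls on all 3 arrays, against 39.9, 70.4 and 53 in wild type, within them on 2 of 3, so that it gives no fold. Cdkn1c, the imprinted gene of p57, had 1 probe set, 1417649_at, which read 202.1, 232.9 and 168.2 in knockdown, against 384.9, 392.8 and 351.4 in wild type. Knockdown was 1.92-fold lower, at -0.94 ± 0.14 on the log2 scale (SE; limma adjusted p 0.000517), with no overlap between the groups.

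Of the INK4 inhibitors, Cdkn2d, the gene of p19-INK4d, fell slightly and Cdkn2c, the gene of p18-INK4c, did not pass. Probe set 1416253_at of Cdkn2d read 7701.8, 7563.5 and 7587.8 in knockdown, against 9347.2, 9162.3 and 9450.1 in wild type. The arrays of each group were tightly grouped, with means of 7618 ± 73.8 in knockdown and 9320 ± 146 in wild type (± SD of 3 arrays each), and the log2 fold change was -0.23 ± 0.04 (SE; limma adjusted p 0.00194). It was -0.49 after median centring, and the call was lost without an intensity trend in the variance model, with an adjusted p of 0.0816. Probe set 1416868_at of Cdkn2c read 110, 225.3 and 136.5 in knockdown, against 168.4, 248.9 and 165.5 in wild type, where array B was the highest of each group and the groups overlapped. Its change of -0.43 ± 0.23 did not pass (limma adjusted p 0.197), with a 95% interval from -0.93 to 0.08, and without knockdown B it was -0.65 (adjusted p 0.0416).

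**Figure D2:**
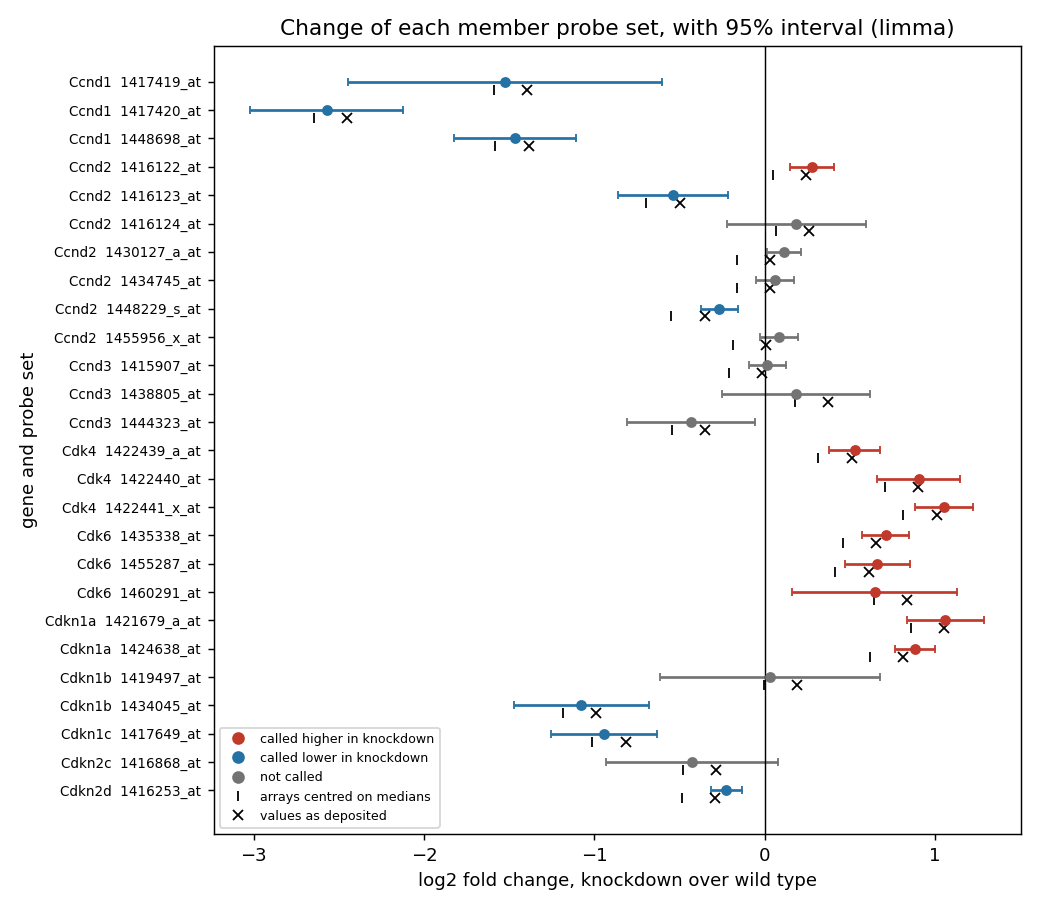
Log2 fold change of each member probe set, knockdown over wild type, with its 95% interval from limma, coloured by call, and with the value under median centring (bar) and as deposited (cross) below it. The 3 sets of Ccnd1 lie between -2.57 and -1.47, the 6 of Cdk4 and Cdk6 between 0.53 and 1.05, and those of Ccnd2 fall on both sides of 0.

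Within arrays, 3 differences between members were compared between the groups, each set to a wild-type mean of 0. A factor common to all signals of an array cancels when the log2 signals of 2 probe sets are subtracted. The values used were quantile normalized after the offset was added, however, and these steps can act unequally on dim and bright probe sets. The differences are therefore not independent of the scaling. Ccnd1 minus Ccnd3 was -1.81, -1.31 and -1.32 in knockdown A, B and C, against -0.05, 0.02 and 0.02 in wild type, a difference of -1.48 between the groups on the log2 scale. Cdk4 minus Cdk6 was 0.26, 0.33 and 0.45 in knockdown, against 0.11, -0.12 and 0.01 in wild type, a shift of 0.34 without overlap. The Cdk4 set used rose by 1.05 and the Cdk6 set used by 0.71, but the other Cdk4 sets rose by 0.90 and 0.53. The last of these rose less than the Cdk6 set, so the direction of the shift depends on the Cdk4 set chosen. It does not show that Cdk4 rose more than Cdk6. Ccnd2 minus Ccnd3 was 0.15, -0.09 and 0.07 in knockdown, against -0.02, -0.07 and 0.09 in wild type, and the groups overlapped. The two-sided exact permutation p was 0.10, 0.10 and 0.80 for the differences with Ccnd1, Cdk4 and Ccnd2 in front, and 0.15, 0.15 and 0.80 after adjustment over the 3. With 3 arrays against 3 the smallest p the test allows is 0.10, so the design cannot reach 0.05. A difference within an array does not show that either gene was unchanged, and the probe sets used were those with the highest mean of each gene.

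**Figure D3:**
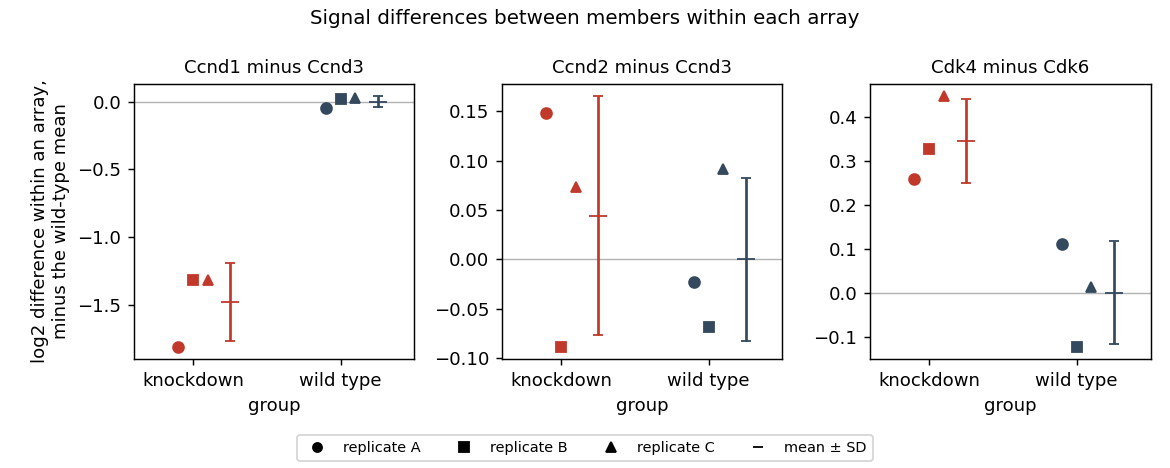
Log2 difference, after quantile normalization, between the probe sets of highest mean of 2 members within each array, minus the wild-type mean, for knockdown (left) and wild type (right), with mean ± SD (n = 3 each). Ccnd1 minus Ccnd3 is lower on all 3 knockdown arrays, Cdk4 minus Cdk6 is higher on all 3, and Ccnd2 minus Ccnd3 overlaps between the groups.

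Genes of the G1/S machinery around cyclin D and CDK4/6 were read by 1 probe set each, that of highest mean. Of the 14230 genes so tested, 18.3% were higher and 17.1% lower in knockdown, with a median log2 fold change of 0.03. Of 23 tested partners, 8 were called higher and 2 lower and 13 did not pass, with a median of 0.24, and after median centring 4 rose, 2 fell and the median was 0.06. The repressor-type factor gene E2f4 rose by 0.77 ± 0.11 and the activator gene E2f2 by 0.80 ± 0.09, with Tfdp1, the dimer partner of E2F proteins, at 0.58 ± 0.06 (highest limma adjusted p 0.000325). E2f5 had the largest change, 1.97 ± 0.61, but read 237.8, 2057.9 and 1245.1 in knockdown A, B and C, against 176.6, 137.3 and 256.8 in wild type. Knockdown A of E2f5 thus lay inside the wild-type range, and its limma adjusted p of 0.0326 exceeded 0.05 on leaving out any single array except knockdown A, with values of 0.0510 to 0.130. Of the tested sets, 1 of 3 of E2f5 and 1 of 2 of E2f2 were called higher. The Cdk7 set, for a subunit of the kinase that activates CDKs, was lower at -0.46 ± 0.10, as 1 of 5 tested sets of that gene. The Tfdp2 set was lower at -0.31 ± 0.09, a call lost on leaving out any single wild-type array, so that 1 of the list fell. Of the 4 Tfdp2 probe sets tested, 1 other was called higher, and so no direction is given for Tfdp2 as a gene.

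The next genes were chosen after their values were seen. Rb1, the gene of the retinoblastoma protein, read 5385.2, 4706.5 and 4782.1 in knockdown, against 5383.9, 4623.2 and 5457.9 in wild type, with a change of 0.04 ± 0.07 that did not pass (limma adjusted p 0.757) and turned to -0.25 after median centring and to -0.055 as deposited. Its relative Rbl2 rose by 0.36 ± 0.08 and Cdk2, the kinase next in the sequence, by 0.46 ± 0.08 (limma adjusted p 0.00546 and 0.00103), and both calls were lost after median centring.

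Another list held genes of the ubiquitin ligases and kinases that mark D cyclins or CIP/KIP inhibitors for destruction. Of 17 tested, 8 were called higher, 1 lower and 8 neither. After median centring 4 rose and 2 fell, and with 1 array left out 6 to 7 rose. The median was 0.13 on the log2 scale. That median was 0.23 without knockdown A, 0.24 without wild type B, 0.32 as deposited and 0.22 under the stricter filter, at the 50th percentile. Dtl, an adaptor of the ligase that removes p21 during S phase, rose by 1.03 ± 0.12, the scaffold Cul1 by 0.73 ± 0.07, and Fbxo31 and Fbxw8, F-box genes reported to act on cyclin D1, by 0.71 ± 0.09 and 0.71 ± 0.06 (highest limma adjusted p 0.000228). Fbxo4, another F-box gene linked to cyclin D1, fell by 0.84 on the log2 scale, with readings of 198.8, 106.2 (at or below the bacterial controls) and 180.3 in knockdown, against 253.4, 278.7 and 267.7 in wild type, and its limma adjusted p of 0.0232 rose above 0.05 without any 1 of the wild-type arrays, which left 0 of the list lower. Skp2 and Cks1b, which together target p27, were picked out with their values known and rose by 0.64 ± 0.18 and 0.44 ± 0.05 (limma adjusted p 0.0236 and 4.94e-05), both lost after median centring. The call of Skp2 was also lost without knockdown A or C or without wild type A or C. Of the tested sets, 3 of 6 of Dtl, 1 of 2 of Fbxo31, 2 of 3 of Fbxw8 and 4 of 6 of Skp2 were called higher.

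Of 18 tested E2F target genes, 11 were higher, 0 lower and 7 neither, and their median log2 fold change was 0.25. Those with the largest rise were the licensing gene Cdt1 at 0.84 ± 0.07, the polymerase gene Pola1 at 0.62 ± 0.10 and the helicase genes Mcm7 and Mcm3 at 0.59 ± 0.05 and 0.47 ± 0.09 (highest limma adjusted p 0.00193). The call of Mcm3 was lost after median centring, at 0.23 (limma adjusted p 0.274). With arrays centred on their medians 3 rose and the median was 0.06, while 7 rose without wild type C and 6 without an intensity trend. Without that trend 5 of the G1/S partners and 5 of the other cyclins and CDKs were higher. Of 21 other cyclins and CDKs, 8 were higher, 3 lower and 10 neither, with a median of 0.14, against 2 that rose, 5 that fell and a median of -0.03 after median centring. The mitotic pair Ccnb2 and Cdk1 rose by 0.63 ± 0.09 and 0.62 ± 0.06, Cdk17 by 0.51 ± 0.06 and Ccnl2 by 0.45 ± 0.07, the last pair only without that centring. Ccnc, Cdk5 and Ccng2 changed by -0.66 ± 0.16, -0.40 ± 0.10 and -0.36 ± 0.07 (highest limma adjusted p 0.0130, for Cdk5, whose call was lost without wild type A or B). Of the tested sets, 1 of 5 of Ccnc, 2 of 2 of Cdk5 and 1 of 2 of Ccng2 were called lower. For Cdk17 1 of 2 and for Ccnl2 2 of 3 were called higher.

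Genes known as targets of p53, listed because Cdkn1a is one, moved in both directions. Of 21 tested, 9 were higher, 4 lower and 8 neither, and the median log2 fold change of 0.16 turned to -0.06 after median centring. Perp, of cell adhesion, rose by 1.72 ± 0.11, the receptor gene Eda2r by 1.20 ± 0.11, the nuclease gene Aen by 0.90 ± 0.09 and Zmat3 by 0.85 ± 0.11. Gadd45a, whose product binds p21 and PCNA, changed by -1.58 ± 0.10, the death gene Pmaip1 by -1.47 ± 0.18, Trp53inp1 by -0.70 ± 0.13 and Sesn1 by -0.65 ± 0.09, and limma's adjusted p was at most 0.00251 over these 8 genes. One of the 2 Trp53inp1 probe sets was called in the opposite direction.

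**Figure D4:**
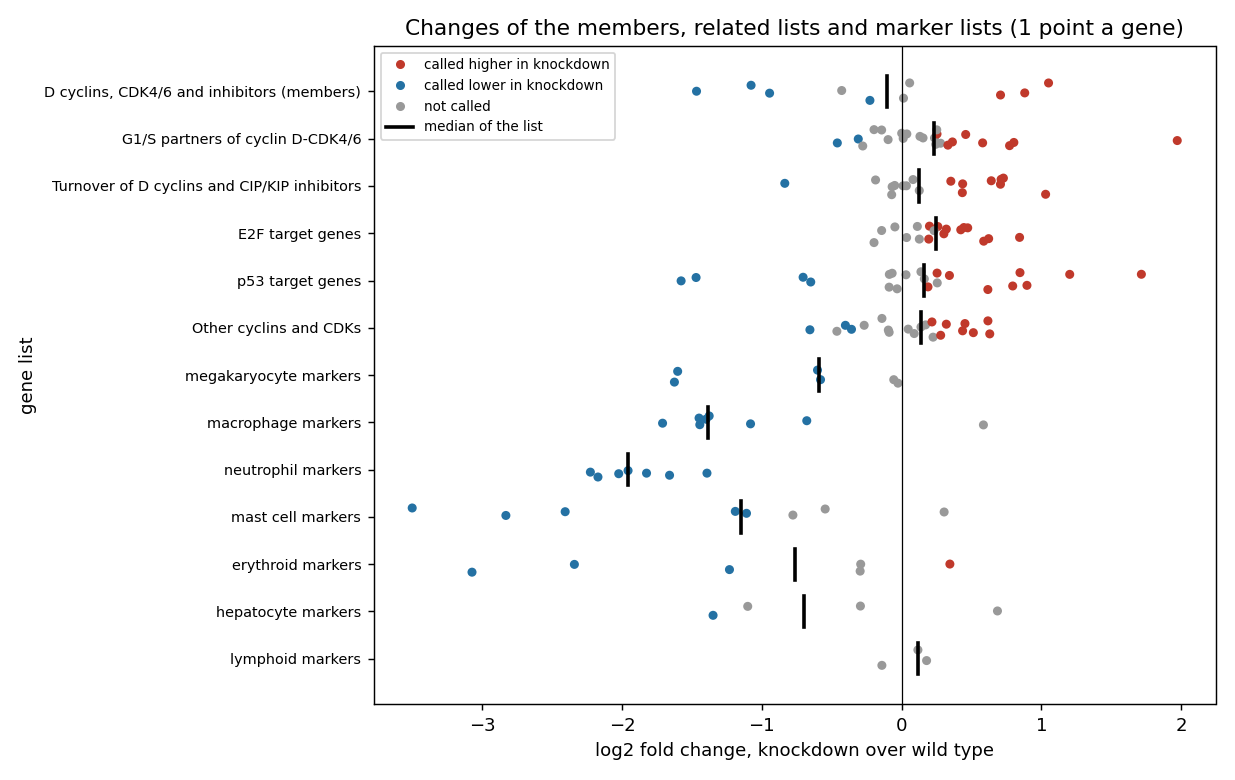
Log2 fold change, knockdown over wild type, of each tested gene of the members, of 5 related lists and of 7 marker lists, 1 point a gene (probe set of highest mean), coloured by call, with the list's median as a bar. E2F target genes and G1/S partners have medians of 0.25 and 0.24, while the macrophage and neutrophil medians lie at -1.39 and -1.96.

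Markers of other cells moved with the groups, and in bulk RNA fewer cells of a type and less RNA per cell cannot be told apart. Against the megakaryocyte label, its marker genes Itga2b and Pf4 were read, with mean signals of 22762 and 19982 in knockdown and 18477 and 17120 in wild type, and neither passed. The other 4 of the 6 tested megakaryocyte markers, named here with their values known, all fell, the platelet receptor gene Gp6 at -1.63 ± 0.10, Vwf at -1.60 ± 0.06, Ppbp at -0.60 ± 0.04 and Gp9 at -0.58 ± 0.06 (highest limma adjusted p 7.11e-05). The list had 4 lower and 0 higher, with a summed signal over the list of 60437 to 78361 in knockdown and 82724 to 88732 in wild type. Of 8 tested macrophage markers, 7 fell and 0 rose (1 rose with values as deposited), with Csf1r at -1.40 ± 0.05 and Cd68 at -1.08 ± 0.09. Their summed signal was 7112 to 7276 in knockdown and 18273 to 18940 in wild type. Vcam1, named here with its values known, read higher on every knockdown array but did not pass, at 0.59 ± 0.22 (limma adjusted p 0.0760). Of its 2 tested sets, 1 was called higher. Cd163 and Marco of that list did not exceed the bacterial controls on any of the 6 arrays. Of 7 tested neutrophil markers, all 7 fell, S100a9 at -2.23 ± 0.12 and S100a8 at -1.96 ± 0.08, with a summed signal of 2327 to 2482 in knockdown and 10064 to 10387 in wild type.

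Mast cell markers summed to 1235 to 1444 in knockdown and 3938 to 4631 in wild type, with 5 of 8 tested lower and 0 higher. Cpa3 changed by -1.19 ± 0.08, and Mcpt2 did not exceed the bacterial controls on 2 of 3 knockdown arrays. Of the 8 mast cell markers, 5 were at or below the controls on every knockdown array. Erythroid markers summed to 4190 to 4468 in knockdown and 18214 to 18481 in wild type, with 3 of 6 tested lower and 1 higher. None was higher without knockdown C, without any single wild-type array or after median centring. Hbb-y, with a wild-type mean of 9748, and Epor changed by -3.07 ± 0.06 and -2.34 ± 0.08. The marker that rose, named here with its values known, was Slc4a1 at 0.35 ± 0.09 (limma adjusted p 0.0178), with both tested sets called higher. Hba-a1 and Epb42 did not pass. Of 4 tested hepatocyte markers 1 fell and 0 rose (2 and 1 without knockdown A), with sums of 679.5 to 782.5 in knockdown and 1158 to 1259 in wild type. Afp, with a wild-type mean of 913, fell by 1.35 on the log2 scale, and 2 of its 4 tested sets were called lower. Hnf4a, named here with its values known, read higher on every knockdown array but did not pass, at 0.69 ± 0.28 (limma adjusted p 0.0953). Alb did not pass at -0.29 ± 0.23. Alb did not exceed the bacterial controls on 2 of 3 knockdown arrays. None of 3 tested lymphoid markers passed, Cd3e at -0.14 ± 0.40 and Ms4a1 at 0.18 ± 0.22, with sums of 200.6 to 379.1 in knockdown and 191.1 to 294.2 in wild type. Cd3e was at or below the controls on 3 of 3 knockdown and 2 of 3 wild-type arrays, and so cannot show a change. Of the 5 lymphoid genes with a probe set, 4 were at or below the controls on every knockdown array. Ccnd1, Cdkn1b and Cdkn1c were lower in the same arrays as the megakaryocyte, macrophage, neutrophil, mast cell, erythroid and hepatocyte sums, and the part of these cells in those results was not tested.

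The genes most like Ccnd1 over the 6 arrays, by Pearson's r of normalized log2 values, were Aktip, Prr5l and Ndrg2, with r of 0.999, 0.999 and 0.998, and those most like Cdk4 were Cytip, Asph and Def6, each with r of 0.999. Of 13209 genes compared, 916 exceeded an r of 0.95 with Ccnd1 and 1308 with Cdk4. The 6 points fall into the 2 groups, and the r is a description only.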

How the data were processed

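RNA of 3 Gata-1 knockdown and 3 wild-type megakaryocyte samples was measured on 1 Affymetrix-type array each, grouped by sample title. The deposited table holds intensity values on a linear scale for 45101 probe sets, scaled by the authors to a trimmed mean of 500.0 per array, as the values show. The software is not given in the sources used here. The arrays' medians of log2(signal + 32) spanned 0.346, and arrays were quantile normalized. The 64 control probe sets and probe sets with a mean below the 30th percentile were left out, leaving 31526.

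Groups were compared with limma (version 3.58.1, R 4.3.3), lmFit and eBayes with an intensity trend, two-sided, with Benjamini-Hochberg adjustment over all probe sets tested and an adjusted p of 0.05. Differences within arrays were tested by exact permutation. The test was tried on simulated data. Members and gene lists were chosen with earlier results of these data known. Named genes are all members, Gata1, up to 4 called genes with the largest rise and 4 with the largest fall per list, the 2 brightest markers per list in wild type, and the 3 genes most like Ccnd1 and Cdk4; others are marked. Gene symbols follow the GRCm38.p6 table by gene number, and RefSeq promoter sequences carry that build. At most 0.233% of signals were identical between arrays of 1 group. Deviations from group means correlated at -0.04, -0.02 and -0.01 for same-lettered arrays, so letters were not used as a block. Alternatives were offsets of 1 and 100, 2 other scalings, 2 other filters, no trend, a replicate block and leaving out each array.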

Additional observations from a re-analysis of the deposited data

How the results depend on the processing

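The median log2 fold change of all probe sets tested was 0.15 as deposited, 0.04 after quantile normalization and -0.05 with arrays centred on their medians, and 60.0%, 52.9% and 32.9% of calls were rises. With median centring 2609 probe sets were higher, against 5062, and 6 member probe sets were higher and 8 lower, against 9 and 8. Without an intensity trend 4 member probe sets were lower. Leaving out 1 array gave 8 to 10 member probe sets higher and 6 to 9 lower, and over all probe sets 3918 to 5517 higher and 3465 to 5192 lower. The replicate block left 9 member probe sets higher and 8 lower, and every member call stood. Outside the members, the call of Tfdp2 was lost (limma adjusted p 0.0680). Of 363 member values under alternatives, 325 kept direction and side of the threshold, 23 lost the call and 4 gained it, and 11 changed sign, none of them of a called probe set. These were, with median centring, Ccnd2 at -0.17, -0.16 and -0.19, Ccnd3 at -0.21 and Cdkn1b 1419497_at at -0.0041. Ccnd3 1415907_at was -0.014 as deposited. With 1 array left out, Ccnd3 1415907_at ranged from -0.016 to 0.045, with -0.0092 without knockdown B, Ccnd2 1416124_at from -0.019 to 0.41 and Cdkn1b 1419497_at from -0.11 to 0.16, with -0.09 without wild type A. Uncalled genes outside the members that changed sign were Rb1 (-0.055 as deposited, -0.25 median centred, -0.032 to 0.075 with 1 array left out), Itga2b (0.28, 0.081, and -0.069 to 0.056), Pf4 (0.22 and 0.020 under these scalings) and Cd3e (0.019 as deposited, and -0.43 to 0.31 with 1 array left out). Within arrays, Ccnd1 against Ccnd3 ranged from -1.56 to -1.32, Cdk4 against Cdk6 from 0.28 to 0.40 and Ccnd2 against Ccnd3 from -0.0078 to 0.11 with 1 array left out. The cause of these changes was not tested. Signals near the bacterial controls, as for Cdkn1b 1419497_at, cannot show a change.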
